A study of Mus musculus with 16 samples.

Results

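The chemokines and their receptors were followed across olfactory mucosa cells that had been sorted by a neuronal activity reporter. The genes were chosen by symbol alone: every gene on the array whose symbol begins with Ccl, Ccr, Cxcl, Cxcr, Cx3cl, Cx3cr, Xcl or Xcr and a digit. This gave 56 of 19505 genes, by name 38 ligands and 18 receptors. The mice were S100a5-tauGFP animals on a C57BL/6 background, in which a green fluorescent protein reports the activity-dependent neuronal gene S100a5, and this reporter was common to every group. The 24 mice were of both sexes and 7 to 12 weeks old. Each spent 40 h alone in a clean-air chamber at 3.1 L/min. From 26 h onwards a 10 s pulse was given every 20 min, either of whiskey lactone, an oak aroma compound (odor), or of filtered air (vehicle). Dissociated cells of 3 mice were pooled and sorted by fluorescence, so an array stands for 3 animals and not for 1. The 4 groups, each of 4 arrays, were odor arrays titled GFP+, odor arrays titled GFP-, vehicle arrays titled GFP+ and vehicle arrays titled GFP-.

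The fraction names need a caution. The cell type field of the labels gives the opposite fraction to the title in 16 of 16 arrays, and S100a5 itself was lower in the array titled GFP+ in 8 of 8 pools. Groups are therefore called by title throughout. Under the cell type field every difference between fractions below would change its sign, and differences between odor and vehicle would keep theirs under the other fraction's name.

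Chemokines are small secreted proteins that guide migrating leukocytes through G protein-coupled receptors coupled to Gi. They are classed by the spacing of their first cysteines into CC, CXC, CX3C and XC families. Inflammatory members recruit neutrophils, monocytes and T cells to tissue, and homeostatic members place lymphocytes and hold cells in their niches. In the nasal mucosa, leukocytes of the lamina propria and resident macrophages of the epithelium carry many of the receptors, while fractalkine (Cx3cl1) is also known as a product of neurons.

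Signals are on a log2 scale, on which 1 unit is a 2-fold change in brightness, and features of different genes differ in brightness for reasons other than RNA amount, so each gene is compared only with itself. Background was read from 5222 negative control features, whose median lay between 4.98 and 5.59 on the 16 arrays. A gene at or below that median on all 4 arrays of a group is called not above background there. Where the mean of the dimmer group lay at or below its mean control median, also if single arrays lay above it, the fold is given as a lower bound, with each of its arrays at the higher of the control median and its own signal. Only 8 of the 56 genes exceeded the control median on all 16 arrays (Ccl17, Ccl20, Ccl21a, Ccl25, Ccl27a, Ccr7, Cx3cl1 and Cxcl17), and 25 exceeded it on 0 of 16. Altogether 23 genes were above it on all arrays of at least 1 group, and 33 were not. The 95th percentile of the controls lay between 9.09 and 10.1, which 1 gene, Ccl27a, exceeded on all arrays and 10 genes on at least 1. The array count limits the precision of each value, and Ccl21b and Ccl21c are read by features that hold identical values, so they count as 2 symbols but 1 measurement.

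Between the sorted fractions, a small set of inflammatory ligands and myeloid receptors stood far higher in the arrays titled GFP+, in both treatments, while most of the other genes lay near background. In the odor pools 16 of 56 genes were higher and 2 lower at an adjusted p under 0.05 (limma, 4 pools), that is 18 genes, where 27.5% of all 19505 genes passed (12.8% higher, 14.7% lower). In the vehicle pools 18 were higher and 3 lower, 21 in all, where 26.0% of all genes passed (12.3% higher, 13.6% lower). The median log2 difference of the 56 genes was 0.09 in odor pools and -0.00 in vehicle pools, beside -0.15 and -0.14 for all genes. Of the 23 genes above background in some group, 14 were higher and 1 lower in odor pools, and 15 higher and 2 lower in vehicle pools. That subset holds genes that were detectable only because 1 fraction was bright, and nothing is read from its share. The split depended on scaling. When each array was centred on its own median, the median difference of all genes moved to -0.53 in odor and -0.51 in vehicle pools, and the counts became 13 higher and 19 lower in odor pools and 15 higher and 24 lower in vehicle pools. The share of all genes that passed after centring is not given here, so these counts are not read as a result about the 56 genes.

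The calls of the odor and vehicle pools overlapped in 14 genes that were higher in both and 1 gene, Cx3cl1, that was lower in both. Another 3 passed in odor pools but not in vehicle pools (Ccl4 and Cxcr1 higher, Ccr10 lower), and 6 in vehicle pools but not in odor pools (Ccl12, Ccl17, Cxcl17 and Cxcr5 higher, Ccl11 and Ccl27a lower). No gene passed in opposite directions, and 32 passed in neither. The share of all genes that passed in both treatments, in 1 alone or in neither is not given here, so nothing is read from these counts. For 12 of the 14 genes the lowest array titled GFP+ lay above the highest array titled GFP- in both treatments. Of all genes, 12.0% were separated in this way in odor pools and 11.2% in vehicle pools. These are shares for 1 treatment at a time, and the share separated in both is not given here. The 14 were picked by their calls on the same arrays, so nothing is read from that count. A difference in calls between the treatments is not a tested difference, and the test of it is given with the odor comparison.

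**Figure D1:**
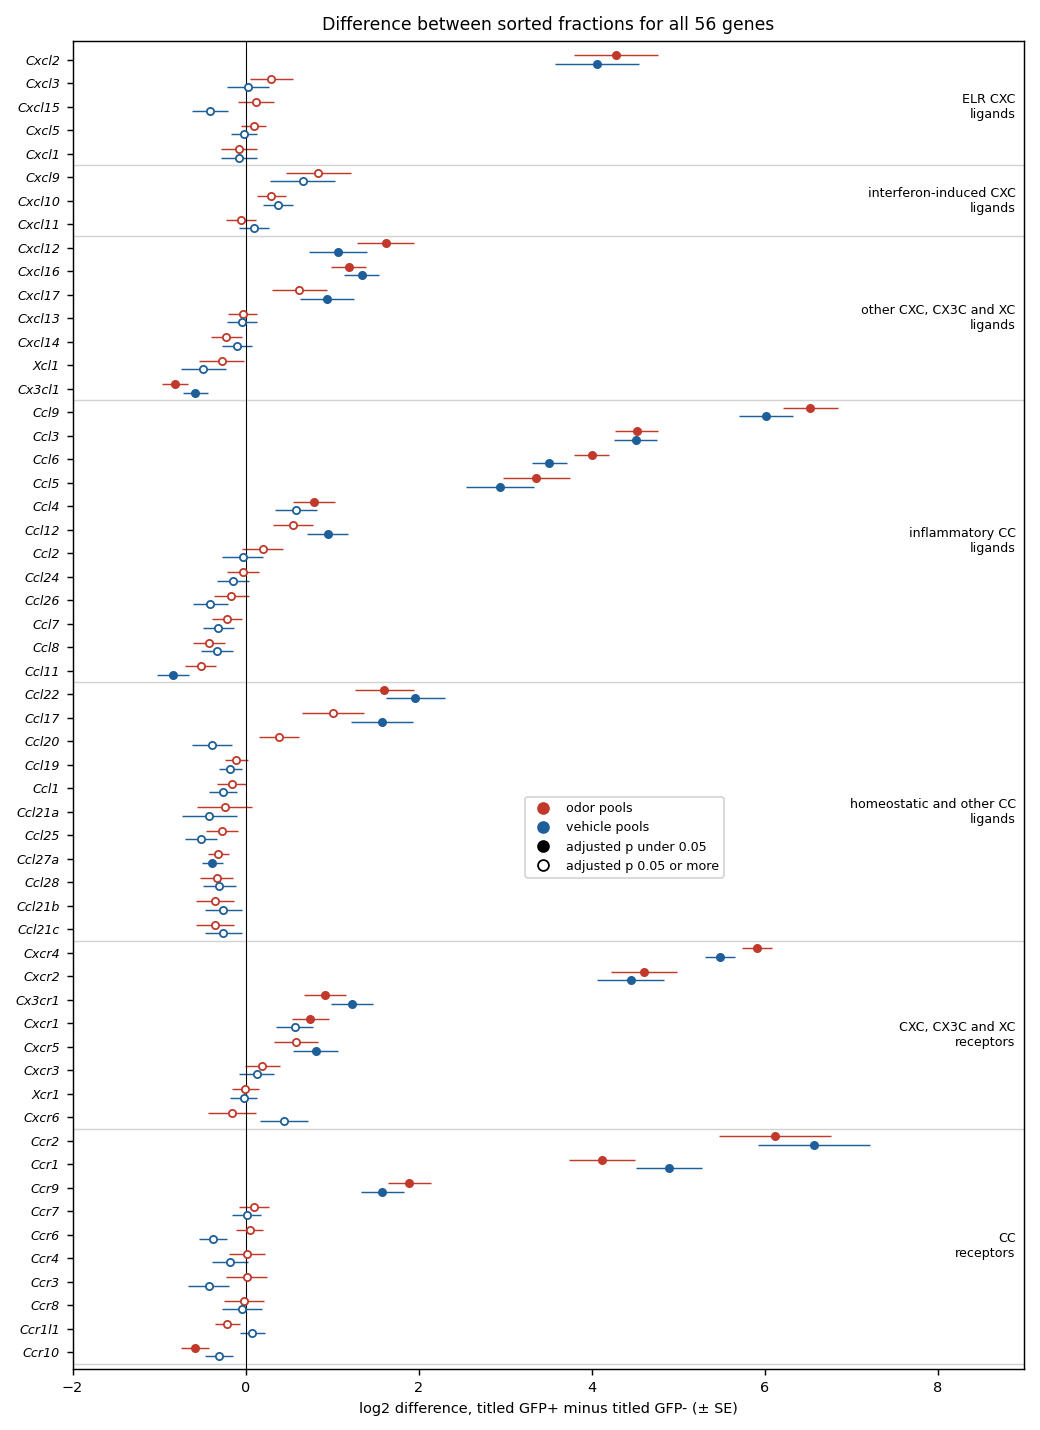
Log2 difference, titled GFP+ minus titled GFP-, for all 56 genes in odor pools (red) and vehicle pools (blue), grouped by role, with bars of ± 1 SE; filled points have an adjusted p under 0.05. Ccl9, Ccr2, Cxcr4, Cxcr2, Ccl3, Cxcl2, Ccr1, Ccl6 and Ccl5 stand apart on the right, from 2.94 to 6.57, and most other genes lie close to 0.

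Promoters of 4 genes are shown because they span the result: the neutrophil attractant Cxcl2 and the CC ligand Ccl9, which were both far higher in the arrays titled GFP+, and the marker receptors Cxcr2 and Ccr2. Each window holds the 250 bases before the RefSeq transcription start (GRCm38.p6), printed 5' to 3' on the gene's strand. Capitals mark matches on either strand to the kappaB motif (bound by NF-kB, which induces many inflammatory chemokines), the AP-1 motif TGANTCA, the PU.1 core GAGGAAGT or the TATA box TATAAA. Cxcl2 lies at chr5:90903649-90903898 on the plus strand, Ccl9 at chr11:83578637-83578886 on the minus strand, Cxcr2 at chr1:74153744-74153993 on the plus strand and Ccr2 at chr9:124101933-124102182 on the plus strand.
Cxcl2: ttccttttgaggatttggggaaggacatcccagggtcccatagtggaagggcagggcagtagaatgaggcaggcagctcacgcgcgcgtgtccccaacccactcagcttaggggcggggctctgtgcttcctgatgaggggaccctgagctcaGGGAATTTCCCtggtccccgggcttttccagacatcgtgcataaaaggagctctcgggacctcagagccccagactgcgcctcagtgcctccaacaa
Ccl9: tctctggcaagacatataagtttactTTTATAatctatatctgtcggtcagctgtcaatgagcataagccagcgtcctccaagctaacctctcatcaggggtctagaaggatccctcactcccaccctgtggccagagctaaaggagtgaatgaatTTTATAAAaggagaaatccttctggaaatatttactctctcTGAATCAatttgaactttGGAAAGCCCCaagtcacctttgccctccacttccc
Cxcr2: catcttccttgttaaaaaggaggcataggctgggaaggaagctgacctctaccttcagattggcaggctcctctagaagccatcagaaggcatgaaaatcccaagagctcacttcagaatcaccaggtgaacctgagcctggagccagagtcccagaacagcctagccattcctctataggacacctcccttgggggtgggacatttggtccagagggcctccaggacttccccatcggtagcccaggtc
Ccr2: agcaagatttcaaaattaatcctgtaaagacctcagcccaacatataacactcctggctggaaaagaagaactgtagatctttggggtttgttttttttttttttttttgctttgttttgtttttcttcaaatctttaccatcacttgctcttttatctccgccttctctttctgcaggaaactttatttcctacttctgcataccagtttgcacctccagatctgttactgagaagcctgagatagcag

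In Cxcl2 the capitals are 2 overlapping kappaB matches, GGGAATTTCC and GGAATTTCCC, which begin 97 and 96 bases before the start. Ccl9 carried a kappaB match 35 bases and an AP-1 match, TGAATCA, 53 bases before the start, as well as 3 TATA box matches, 2 of them overlapping. The windows of Cxcr2 and Ccr2 held none of these letters. A window was at hand for 41 of the 56 genes. Among the genes higher in both treatments, 3 of 12 windows (25.0%; Ccl9, Ccr1 and Cxcl2) held a kappaB match, among genes called in neither 7 of 26 (26.9%), and among all 32851 promoter windows 7.25%. The difference between these shares was not tested, and of the genes called in neither that hold a match, Ccl1, Ccr3, Ccr6 and Cxcl10 were above the control median on 0 of 16 arrays. AP-1 letters were in 8.33% of the windows of the genes higher in both, 11.5% of those called in neither and 6.75% of all, and TATA box letters in 16.7%, 30.8% and 12.4%. The PU.1 core was in 0.00%, 3.85% and 2.44%. A match describes letters and is not a measured binding site.

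Cxcr2, the receptor through which neutrophils sense ELR CXC chemokines, read 11.40, 9.96, 10.31 and 9.38 (log2 signal, pools 1 to 4) in the odor arrays titled GFP+, against 5.36, 6.08, 5.53 and 5.67 in the odor arrays titled GFP-. Vehicle pools gave 11.00, 8.75, 10.24 and 10.09 in arrays titled GFP+, against 5.99, 5.62, 4.84 and 5.83 in arrays titled GFP-. The groups did not overlap, and the lower fraction lay at the level of the control features. The difference was 24.3-fold in odor pools (4.60 ± 0.38, log2 ± SE, n = 4 pools; limma, adjusted p = 9.73e-07) and 21.8-fold in vehicle pools (4.45 ± 0.38, adjusted p = 1.45e-06). Its sister receptor Cxcr1 was not above background in any group, and its difference of 0.75 in odor pools (adjusted p = 0.0198) was 0.57 in vehicle pools (adjusted p = 0.0693). The Cxcr1 call was lost without odor pool 1 (0.75) or odor pool 2 (0.48).

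Among the 5 ELR CXC ligands of Cxcr2, 1 was higher in each treatment, and it was Cxcl2, a rapidly induced neutrophil attractant. That is 20%, beside 12.8% of all genes in odor and 12.3% in vehicle pools. Cxcl2 read 9.09, 6.93, 9.27 and 7.52 in the odor arrays titled GFP+, against 3.69, 4.26, 4.00 and 3.75 in the odor arrays titled GFP-. The vehicle pools gave 9.16, 7.72, 6.28 and 8.90 in arrays titled GFP+, against 3.62, 4.23, 3.82 and 4.14 in arrays titled GFP-. Cxcl2 was not above background on any array titled GFP-, and the arrays titled GFP+ were spread over several units in each treatment (SD 1.16 in odor, 1.32 in vehicle). It was at least 7.55-fold higher in odor pools (fitted difference 4.28 ± 0.49, adjusted p = 1.84e-05) and at least 5.67-fold higher in vehicle pools (4.06 ± 0.49, adjusted p = 3.23e-05). Cxcl1, Cxcl3, Cxcl5 and Cxcl15, which act on the same receptor or, for Cxcl15, are known from mouse lung, did not pass. Their differences ran from -0.07 to 0.30 in odor pools and from -0.41 to 0.03 in vehicle pools, and Cxcl5 and Cxcl15 were not above background on any array. The list median was 0.12 in odor pools and -0.02 in vehicle pools.

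Ccr2, the receptor that brings inflammatory monocytes out of the bone marrow and into tissue, read 11.69, 9.51, 11.47 and 9.36 in the odor arrays titled GFP+, against 3.80, 5.54, 3.39 and 4.82 in the odor arrays titled GFP-. The vehicle values were 11.21, 9.19, 10.76 and 10.44 in arrays titled GFP+, against 4.21, 4.62, 2.93 and 3.56 in arrays titled GFP-. Only 1 of the 8 arrays titled GFP- lay above its control median, and no array titled GFP+ came near it. The difference was at least 35.7-fold in odor pools (fitted 6.12 ± 0.65, adjusted p = 9.03e-06) and at least 29.6-fold in vehicle pools (fitted 6.57 ± 0.65, adjusted p = 5.11e-06). Single pools varied widely, from 3.97 to 8.08 in odor pools and from 4.57 to 7.83 in vehicle pools.

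Known ligands of Ccr2 lay near background. Ccl2, the main monocyte attractant, had 5.53, 5.07, 5.40 and 5.43 in the odor arrays titled GFP+, against 5.06, 5.09, 5.23 and 5.26 in the odor arrays titled GFP-. Vehicle pools gave 5.29, 5.13, 4.56 and 5.52 in arrays titled GFP+, against 5.13, 4.89, 5.60 and 5.01 in arrays titled GFP-. All lay close to the control median, with differences of 0.20 ± 0.24 (adjusted p = 0.560) in odor pools and -0.03 ± 0.24 (adjusted p = 0.931) in vehicle pools. Ccl7, which shares the receptor, was not above background on any array (-0.22 and -0.32). Ccl12, a mouse monocyte attractant, was above the control median on 1 array of 16 and passed in vehicle pools alone (0.95 ± 0.23, adjusted p = 0.00900; in odor pools 0.54 ± 0.23, adjusted p = 0.101), and did not pass without vehicle pool 2 (0.77).

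Ccr1, a receptor of neutrophils and monocytes for several CC ligands, read 9.69, 7.61, 9.06 and 7.36 in the odor arrays titled GFP+, against 4.30, 4.52, 3.81 and 4.61 in the odor arrays titled GFP-. Vehicle pools gave 8.77, 8.26, 8.65 and 8.74 in arrays titled GFP+, against 3.92, 3.76, 3.59 and 3.57 in arrays titled GFP-. No array titled GFP- was above background, and among the arrays titled GFP+ the odor pools were more spread than the vehicle pools (SD 1.12 in odor, 0.24 in vehicle). The difference was at least 8.82-fold in odor pools (4.12 ± 0.38, adjusted p = 2.79e-06) and at least 8.54-fold in vehicle pools (4.89 ± 0.38, adjusted p = 5.78e-07).

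Several known Ccr1 ligands were higher as well. Ccl9, a Ccr1 ligand found in mice, read 12.59, 10.40, 11.74 and 10.17 in the odor arrays titled GFP+, against 4.50, 4.70, 5.10 and 4.49 in the odor arrays titled GFP-. Among the vehicle pools it read 11.25, 10.63, 11.47 and 11.33 in arrays titled GFP+, against 5.18, 4.33, 5.75 and 5.35 in arrays titled GFP-. The arrays titled GFP- lay above their control median in 0 of 4 odor pools and 1 of 4 vehicle pools. Ccl9 was at least 61.2-fold higher in odor pools (fitted 6.53 ± 0.31, adjusted p = 5.53e-09) and at least 48.6-fold higher in vehicle pools (fitted 6.02 ± 0.31, adjusted p = 1.25e-08).

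Ccl3, an inflammatory ligand of Ccr1, differed in that its lower fraction was not uniformly dark. It read 12.82, 10.61, 11.55 and 10.99 in the odor arrays titled GFP+, against 8.10, 5.41, 7.15 and 7.23 in the odor arrays titled GFP-. The vehicle values were 12.29, 10.32, 9.39 and 11.64 in arrays titled GFP+, against 7.82, 4.90, 5.52 and 7.35 in arrays titled GFP-. Pool 1 was highest in both fractions of both treatments. Within each pool the difference stayed close to the mean, from 3.76 to 5.20 in odor pools and from 3.87 to 5.42 in vehicle pools. It was 22.9-fold in odor pools (4.52 ± 0.25, adjusted p = 2.03e-08) and 22.8-fold in vehicle pools (4.51 ± 0.25, adjusted p = 2.24e-08). Ccl4, its neighbour and a macrophage inflammatory protein like Ccl3, differed less: it read 6.92, 6.08, 6.23 and 5.77 in the odor arrays titled GFP+, against 5.82, 5.62, 4.99 and 5.43 in the odor arrays titled GFP-. The Ccl4 groups overlapped in these odor pools, and the 1.72-fold difference in odor pools (0.79 ± 0.24, adjusted p = 0.0292) was 0.58 ± 0.24 in vehicle pools (adjusted p = 0.101). Without odor pool 1 it was 0.68 (adjusted p = 0.122) and without odor pool 3 it was 0.63 (adjusted p = 0.142). The RefSeq genes Ccl3 and Ccl4 overlap.

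Ccl6, a CC ligand of mouse myeloid cells, read 10.58, 9.57, 10.20 and 9.06 in the odor arrays titled GFP+, against 6.24, 5.27, 6.06 and 5.83 in the odor arrays titled GFP-. Vehicle pools gave 9.96, 8.92, 9.83 and 9.70 in arrays titled GFP+, against 6.63, 5.60, 5.94 and 6.20 in arrays titled GFP-. The groups were far apart, by 4.00 ± 0.20 in odor pools (adjusted p = 8.06e-09) and by 3.51 ± 0.20 in vehicle pools (11.4-fold, adjusted p = 3.10e-08). Ccl5, a T and NK cell product that acts on Ccr1 and other receptors, read 8.45, 6.84, 9.09 and 7.16 in the odor arrays titled GFP+, against 4.55, 4.52, 4.45 and 4.57 in the odor arrays titled GFP-. Its vehicle values were 7.94, 6.43, 8.17 and 7.73 in arrays titled GFP+, against 4.49, 4.93, 4.74 and 4.34 in arrays titled GFP-. Ccl5 was not above background on any array titled GFP-. It was at least 6.05-fold higher in odor pools (3.36 ± 0.39, adjusted p = 2.17e-05) and at least 4.16-fold higher in vehicle pools (2.94 ± 0.39, adjusted p = 7.97e-05). Of the 12 inflammatory CC ligands, 5 were higher (41.7%, beside 12.8% of all genes) and 0 lower in odor pools (median 0.37). In vehicle pools (median 0.27) 5 were higher (41.7%, beside 12.3%) and 1 lower (8.33%, beside 13.6%). The lower one was the eosinophil attractant Ccl11 (-0.84 ± 0.18, adjusted p = 0.00435), which was not above background on any array.

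Cxcr4, the receptor that retains neutrophils and progenitors in the marrow and guides neurons and leukocytes along Cxcl12, had the smallest adjusted p of the 56 genes. It read 12.35, 10.71, 11.35 and 10.51 in the odor arrays titled GFP+, against 6.52, 4.52, 5.35 and 4.90 in the odor arrays titled GFP-. Among the vehicle pools it read 11.32, 10.06, 10.80 and 11.17 in arrays titled GFP+, against 5.97, 4.03, 5.60 and 5.81 in arrays titled GFP-. Levels shifted from pool to pool but both fractions shifted together. The difference was 60.0-fold in odor pools (5.91 ± 0.17, adjusted p = 7.84e-11) and at least 34.5-fold in vehicle pools (5.48 ± 0.17, adjusted p = 1.20e-10). In the arrays titled GFP- it was above the control median on 2 of 4 odor and 3 of 4 vehicle arrays. The odor mean there, 5.32, lay at the level of the control features, so the 60.0-fold value also rests on signals near background.

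Cxcl12, its ligand and a product of stromal and perivascular cells, moved less and with more scatter. It read 7.90, 5.60, 7.33 and 5.78 in the odor arrays titled GFP+, against 4.79, 4.74, 5.43 and 5.17 in the odor arrays titled GFP-. The vehicle values were 6.38, 5.40, 6.33 and 6.53 in arrays titled GFP+, against 5.06, 4.57, 5.63 and 5.10 in arrays titled GFP-. The groups were just separate in odor pools and overlapped in vehicle pools. In the arrays titled GFP- it was above the control median on 1 of 4 arrays in each treatment. The difference was at least 2.44-fold in odor pools (fitted 1.62 ± 0.33, adjusted p = 0.00265) and at least 1.54-fold in vehicle pools (fitted 1.07 ± 0.33, adjusted p = 0.0316), and the vehicle call was lost when any 1 vehicle pool was left out (0.95 to 1.19).

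Fractalkine and its receptor ran in opposite directions. Cx3cr1, which marks resident macrophages, microglia and patrolling monocytes, read 6.87, 5.57, 6.05 and 5.72 in the odor arrays titled GFP+, against 5.55, 4.43, 5.06 and 5.51 in the odor arrays titled GFP-. Vehicle pools gave 7.36, 6.03, 6.61 and 6.12 in arrays titled GFP+, against 5.48, 4.92, 5.25 and 5.55 in arrays titled GFP-. The differences were modest, at least 1.60-fold in odor pools (0.92 ± 0.24, adjusted p = 0.0123) and at least 2.01-fold in vehicle pools (1.23 ± 0.24, adjusted p = 0.00200), and the odor call was lost without odor pool 1 (0.78, adjusted p = 0.0695) or pool 2 (0.84, adjusted p = 0.0507).

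Cx3cl1, the membrane-bound ligand of Cx3cr1, read 8.20, 8.39, 7.96 and 8.53 in the odor arrays titled GFP+, against 8.94, 9.41, 8.91 and 9.11 in the odor arrays titled GFP-. Among the vehicle pools it read 8.69, 8.13, 8.22 and 8.40 in arrays titled GFP+, against 8.95, 8.73, 8.79 and 9.29 in arrays titled GFP-. It was above background everywhere and lower in arrays titled GFP+ in every one of 8 pools, with no overlap of the groups. The drop was 1.77-fold in odor pools (-0.82 ± 0.15, adjusted p = 0.00107) and 1.49-fold in vehicle pools (-0.58 ± 0.15, adjusted p = 0.0120). The vehicle call was lost under cyclic loess scaling (-0.44, adjusted p = 0.0504) and without vehicle pool 4 (-0.48, adjusted p = 0.0709). Mature olfactory sensory neuron markers moved the same way: 5 of 10 were lower in odor pools and 6 of 10 in vehicle pools, with medians of -0.24 and -0.28, and their part in the Cx3cl1 result was not tested.

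**Figure D2:**
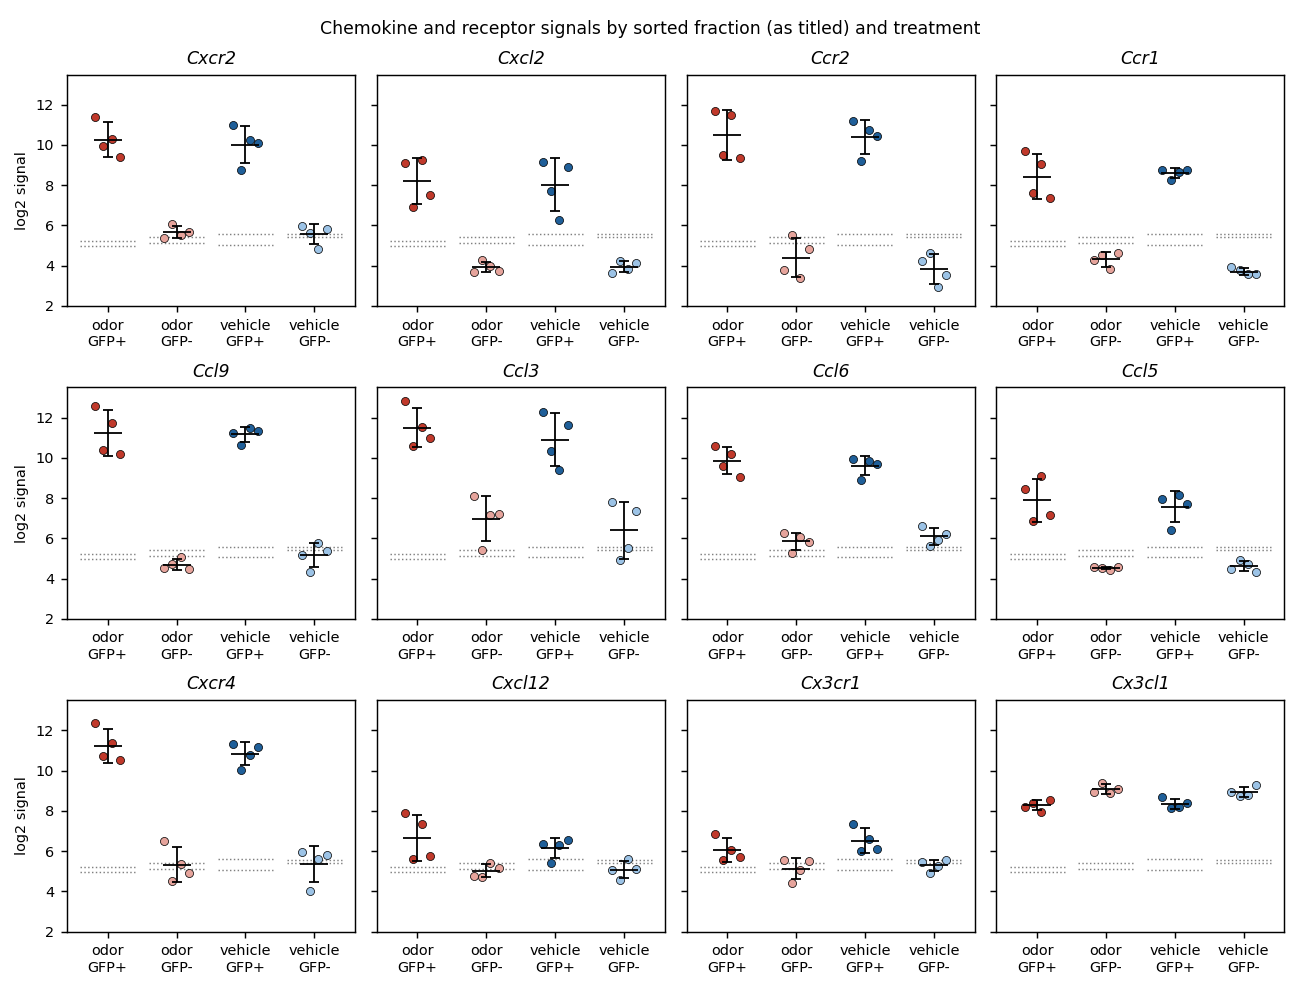
Log2 signal of 12 genes in the 16 arrays, by title and treatment; points are pools, bars the mean ± SD of 4 pools, and dotted lines the lowest and highest control median of the group. Cxcr2, Cxcl2, Ccr2, Ccr1, Ccl9, Ccl3, Ccl6, Ccl5 and Cxcr4 form separate upper and lower sets by fraction, Cxcl12 and Cx3cr1 lie closer to background, and Cx3cl1 is the reverse, lower in the arrays titled GFP+.

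Other genes passed with smaller differences. Cxcl16, a membrane-bound ligand of Cxcr6 made by macrophages and epithelia, averaged 7.24 ± 0.19 in odor arrays titled GFP+, against 6.05 ± 0.35 in odor arrays titled GFP- (SD, n = 4). Its vehicle means were 7.32 ± 0.52 in arrays titled GFP+, against 5.98 ± 0.44 in arrays titled GFP-. The groups did not overlap, and the difference was 2.28-fold in odor pools (1.19 ± 0.20, adjusted p = 0.000624) and 2.53-fold in vehicle pools (1.34 ± 0.20, adjusted p = 0.000257). Cxcr6 itself, a receptor of resident lymphocytes, did not pass (-0.16 in odor pools and 0.45 in vehicle pools). The other CXC, CX3C and XC group held 7 ligands, with medians of -0.03 in odor and -0.04 in vehicle pools. In odor pools 2 were higher (28.6%, beside 12.8% of all genes) and 1 lower (14.3%, beside 14.7%). In vehicle pools 3 were higher (42.9%, beside 12.3%) and 1 lower (14.3%, beside 13.6%). In vehicle pools the additional one was Cxcl17, a mucosal chemokine (0.94 ± 0.32, adjusted p = 0.0449 in vehicle pools; 0.62, adjusted p = 0.167 in odor pools). Its call was lost without vehicle pool 1 (0.72) or vehicle pool 3 (0.70), and without odor pool 3 or 4, which enter its spread.

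Of 11 homeostatic CC ligands measured, 1 was higher in odor pools (9.09%, beside 12.8% of all genes; median -0.24). In vehicle pools 2 were higher (18.2%, beside 12.3%) and 1 lower (9.09%, beside 13.6%; median -0.26), so these shares lay near those of all genes. Ccl22 and Ccl17, dendritic cell ligands of Ccr4, were the ones that passed higher. Ccl22 was not above background in the arrays titled GFP-. It was at least 1.38-fold higher in odor pools (1.60 ± 0.34, adjusted p = 0.00337) and at least 1.64-fold higher in vehicle pools (1.96 ± 0.34, adjusted p = 0.000826). Ccl17 was 2.98-fold higher in vehicle pools (1.57 ± 0.36, adjusted p = 0.00574) and did not pass in odor pools (1.01 ± 0.36, adjusted p = 0.0539), where it passed once odor pool 2 (1.39) or odor pool 4 (1.22) was left out. Their receptor Ccr4 was not above background on any array. Ccl27a, a skin chemokine and the gene above the 95th percentile of the controls on all arrays, averaged 12.59 ± 0.17 in odor arrays titled GFP+, against 12.90 ± 0.18 in odor arrays titled GFP-, and 12.59 ± 0.17 in vehicle arrays titled GFP+, against 12.98 ± 0.11 in vehicle arrays titled GFP-. Its small difference passed in vehicle pools alone (-0.38 ± 0.12, adjusted p = 0.0333; -0.32 ± 0.12, adjusted p = 0.0715 in odor pools). That call was lost without vehicle pool 1 (-0.35), 3 (-0.32) or 4 (-0.37), and in odor pools Ccl27a passed without odor pool 3 (-0.45). The vehicle call was also lost under cyclic loess scaling (-0.26, adjusted p = 0.163) and without the variance trend (adjusted p = 0.0803). In odor pools Ccl27a passed after median centring (-0.69, adjusted p = 0.000533) and with the pool as a random block (adjusted p = 0.0428). The Ccl27a gene overlaps Il11ra1 in RefSeq, and whether its feature also reads that transcript was not tested. Among other genes that passed, Cxcl16, Ccl5, Ccl6, Cxcl17, Cx3cl1, Cx3cr1, Ccr9, Ccr10 and Cxcr5 also overlap another RefSeq gene. For them this was not tested either. Ccl20, Ccl21a, Ccl25 and the lymph node receptor Ccr7 were above background on all arrays and did not pass in either treatment; their differences lay between -0.51 and 0.38.

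Among the 10 CC receptors 3 were higher (30%, beside 12.8% of all genes) and 1 lower (10%, beside 14.7%) in odor pools (median 0.03). In vehicle pools (median -0.01) 3 were higher (30%, beside 12.3%). Besides Ccr1 and Ccr2 the other one was Ccr9, a gut-homing receptor of lymphocytes and plasmacytoid dendritic cells. It read 6.10, 4.63, 5.02 and 5.33 in the odor arrays titled GFP+, against 3.93, 3.06, 2.90 and 3.63 in the odor arrays titled GFP-. The vehicle values were 5.19, 3.84, 5.48 and 5.72 in arrays titled GFP+, against 4.00, 2.94, 3.86 and 3.10 in arrays titled GFP-. The groups overlapped in vehicle pools, and the arrays titled GFP+ lay on both sides of the control median, so no fold is given; the fitted differences were 1.89 ± 0.25 (adjusted p = 6.32e-05) in odor and 1.58 ± 0.25 (adjusted p = 0.000334) in vehicle pools. Ccr10, the Ccl27a receptor, was lower in odor pools (-0.58 ± 0.16, adjusted p = 0.0153) but below the control median on all 16 arrays, and it did not pass without odor pool 4 (-0.45). Of the 8 CXC, CX3C and XC receptors 4 were higher in odor pools (median 0.66) and 4 in vehicle pools (median 0.69). That is 50% in each treatment, beside 12.8% and 12.3% of all genes. The B cell receptor Cxcr5 was the one called in vehicle pools alone (0.81 ± 0.26, adjusted p = 0.0352), again below background, and it did not pass when any 1 vehicle pool was left out (0.72 to 0.88). The 3 genes listed as interferon-induced ligands of Cxcr3, Cxcl9, Cxcl10 and Cxcl11, did not pass (medians 0.30 in odor and 0.37 in vehicle pools), and neither did Cxcr3 (0.19 and 0.13). RefSeq classes Cxcl11 as a transcribed pseudogene in this build, so it counts as a ligand by name only.

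Neighbouring genes were alike in some chromosomal runs and not in others. For the counts that follow, 12.8% of all genes were higher in odor and 12.3% in vehicle pools. In RefSeq gene order, Ccl5, Ccl9, Ccl6, Ccl3 and Ccl4 form a run on chromosome 11, where 5 of 5 were higher in odor pools and 4 of 5 in vehicle pools (medians 4.00 and 3.51). A second run on the same chromosome, Ccl2, Ccl7, Ccl11, Ccl12, Ccl8 and Ccl1, had 0 of 6 higher in odor pools and 1 of 6 in vehicle pools (medians -0.19 and -0.29). On chromosome 5, Cxcl2 was the 1 gene of 5 that passed among Cxcl5, Cxcl3, Cxcl15, Cxcl1 and Cxcl2 (medians 0.12 and -0.02). On chromosome 9, Ccr9, Ccr1 and Ccr2 were higher in both treatments, while Cxcr6, Xcr1, Ccr1l1 and Ccr3 among them were not (medians 0.01 and 0.45). The runs were defined as neighbours at most 6 positions apart in gene order, and neighbours are not independent of one another.

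**Figure D3:**
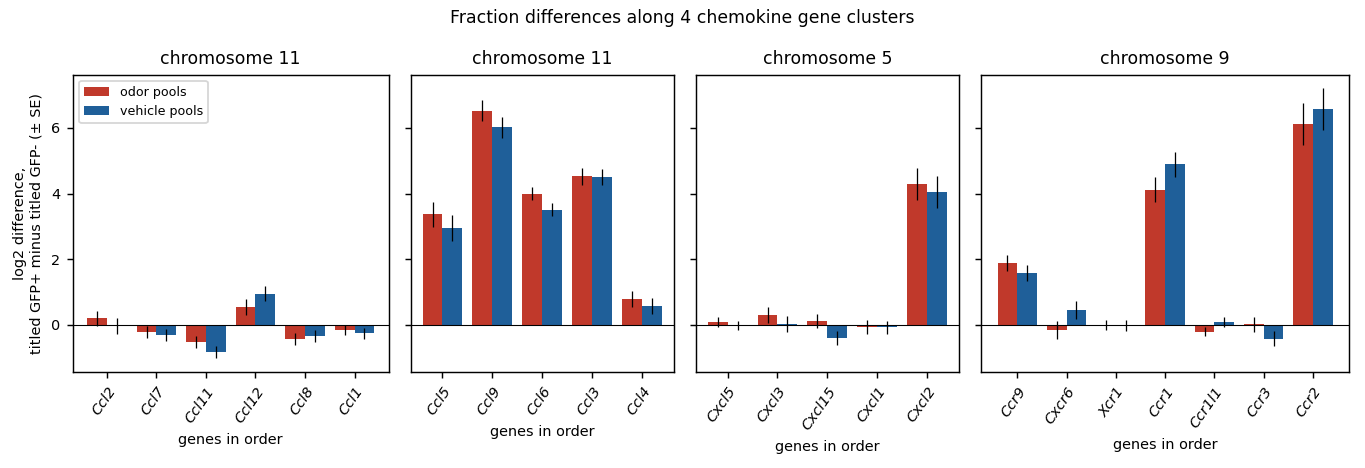
Log2 difference, titled GFP+ minus titled GFP- (bars, ± SE), in odor pools (red) and vehicle pools (blue), for genes in chromosomal order in 4 runs of neighbouring genes. The run from Ccl5 to Ccl4 has its peak at Ccl9 (6.53 in odor and 6.02 in vehicle pools), whereas the run from Ccl2 to Ccl1 stays between -0.84 and 0.95, and Cxcl2 and Ccr2 stand at the ends of theirs.

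The spread between pools differed from gene to gene. For the 9 genes that were among the 10 largest differences in both treatments (Ccl9, Ccr2, Cxcr4, Cxcr2, Ccl3, Cxcl2, Ccr1, Ccl6 and Ccl5), the median SD over 4 pools was 1.06 in odor arrays titled GFP+, against 0.36 in odor arrays titled GFP-. It was 0.78 in vehicle arrays titled GFP+, against 0.51 in vehicle arrays titled GFP-, where most of these genes lay near background. Ccl3 and Cxcr4 in both treatments and Ccl9 in vehicle pools went the other way, with the larger SD in the arrays titled GFP-. The pools kept an order across genes: odor pool 1 was the highest array titled GFP+ for 7 of the 9 genes, and odor pool 4 the lowest for 6. Vehicle pool 1 was highest for 7 of the 9, and vehicle pool 2 lowest for 7.

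Leukocyte markers moved with these genes. As a measure for the marker counts, 12.8% of all genes were higher and 14.7% lower in odor pools, and 12.3% and 13.6% in vehicle pools. In bulk fractions like these, a change in the number of cells of a type and a change in RNA per cell cannot be told apart. All 10 neutrophil markers were higher in arrays titled GFP+ in both treatments, with median differences of 8.12 in odor and 8.23 in vehicle pools. Cxcr2 is 1 of these 10 markers and had the smallest difference among them (4.60 in odor and 4.45 in vehicle pools). Their summed signal on the log2 scale was 18.10 to 19.69 in odor arrays titled GFP+, against 9.88 to 11.66 in odor arrays titled GFP-. In vehicle pools it was 18.61 to 19.25 in arrays titled GFP+, against 10.09 to 11.54 in arrays titled GFP-. By pool the odor arrays titled GFP+ read 19.69, 18.75, 19.26 and 18.10 and the vehicle ones 19.25, 18.61, 18.98 and 19.03, so pool 1 was highest in both treatments, odor pool 4 lowest in odor and vehicle pool 2 lowest in vehicle, as for most of the 9 chemokine genes. The summed signals of the monocyte, macrophage, T and NK cell and B cell markers had the same highest and lowest pools in both treatments. So did those of the endothelial and fibroblast markers, but both lists hold genes not above background, so nothing is read from them. The brighter sustentacular and microvillar markers were also highest in pool 1 in both treatments, so that part of the order was not confined to leukocyte lists. They were lowest in odor pool 2 instead (15.31 and 10.96, against 15.32 and 11.06 in pool 4, arrays titled GFP+). Microvillar markers were lowest in vehicle pool 4 (10.99, array titled GFP+). Dendritic cell markers were instead lowest in odor pool 2 (11.05, against 11.11 in pool 4, arrays titled GFP+). Mast cell and eosinophil markers were highest in vehicle pool 3 (10.69, array titled GFP+). The neutrophil gene Camp was not above background in the arrays titled GFP- of either treatment, nor was Csf3r in the vehicle ones.

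All 7 monocyte markers, Ccr2 among them, were higher as well (medians 6.12 and 6.57). Both medians are the values of Ccr2 itself, so they add nothing to the Ccr2 result. The summed signals of the 7 markers were 15.59 to 17.43 in odor arrays titled GFP+, against 8.59 to 9.43 in odor arrays titled GFP-. In vehicle pools they were 16.30 to 17.06 in arrays titled GFP+, against 8.43 to 9.38 in arrays titled GFP-. Of 7 macrophage markers 6 were higher in odor and 7 in vehicle pools (medians 1.54 and 1.55). T and NK cell markers passed in 5 and 6 of 7, with Cd3g and Cd247 not above background anywhere. B cell markers passed in 3 and 4 of 6, dendritic cell markers in 4 and 4 of 6, and mast cell and eosinophil markers in 4 and 3 of 6. Platelet and endothelial markers passed in 0 of 4 each. The endothelial genes Cdh5, Kdr and Emcn were not above background in any group, which limits what that list could show. Markers of other cells of the tissue differed by list. In both treatments 6 of 6 microvillar, 5 of 6 sustentacular and 4 of 5 immature neuron markers were higher. The summed signal of the immature neuron markers overlapped between fractions all the same. It was 15.08 to 15.62 in odor arrays titled GFP+, against 15.17 to 15.45 in odor arrays titled GFP-. In vehicle pools it was 15.17 to 15.51 in arrays titled GFP+, against 15.07 to 15.48 in arrays titled GFP-. Of 5 respiratory ciliated and secretory markers 2 were higher and 1 lower in both, of 4 fibroblast and 4 ensheathing glia markers 1 each was higher, and of 10 mature neuron markers 0 were higher and 5 in odor and 6 in vehicle pools lower. The part of these cells in the chemokine results was not tested.

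Genes that work with chemokine receptors were read from 5 further lists. Beside their counts, 12.8% of all genes were higher and 14.7% lower in odor pools, and 12.3% and 13.6% in vehicle pools. Of 17 measured genes of receptor-proximal signalling, 14 were higher and 2 lower in odor pools (median 2.43) and 13 higher and 1 lower in vehicle pools (median 1.95). They include Gnai2, the main Gi subunit of leukocytes (61.7-fold in odor and 67.3-fold in vehicle pools), Pik3cg, the lipid kinase activated by Gi beta-gamma (at least 41.4-fold in odor and 29.2-fold in vehicle pools), and Rgs2, a regulator of G protein signalling (at least 37.1-fold and 19.9-fold). The phospholipase Plcb3 was 1.56-fold lower in odor and 1.55-fold lower in vehicle pools. Of 19 measured migration effectors, 14 were higher in odor pools (median 1.51) and 16 in vehicle pools (median 1.37), among them the leukocyte GTPase Rac2 (at least 143-fold in odor and at least 124-fold in vehicle pools) and the actin regulator Coro1a (at least 50.8-fold and 43.0-fold). Dock2, the Rac activator downstream of chemokine receptors, was at least 21.6-fold higher in odor and at least 14.0-fold higher in vehicle pools.

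Of 11 measured NF-kB inducers and targets, 8 were higher in odor pools and 7 in vehicle pools (medians 1.32 and 1.37). The cytokine Il1b was 64.8-fold higher in odor and 85.6-fold higher in vehicle pools, and the NF-kB inhibitor gene Nfkbia was 2.49-fold and 2.58-fold higher. Of the 5 genes on the list of atypical receptors, Ccrl2 included, which bind chemokines or chemerin without Gi signalling, 2 were higher in both treatments. Ccrl2, known from activated neutrophils and macrophages, was at least 10.1-fold higher in odor pools (4.51 ± 0.31, adjusted p = 1.62e-07) and at least 4.57-fold higher in vehicle pools (3.67 ± 0.31, adjusted p = 1.23e-06), and Ackr4 was at least 2.19-fold and 1.66-fold higher. The Cxcl12 scavenger Ackr3 had 0.28 in both and did not pass. The platelet chemokines Pf4 and Ppbp did not pass either.

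No chemokine or receptor gene passed between whiskey lactone and vehicle. The test of the fraction difference between odor and vehicle called 0 of 56, where 0.00513% of all genes passed (1 gene). Odor against vehicle called 0 of 56 in the arrays titled GFP+ (0.00513% of all genes) and 0 of 56 in the arrays titled GFP- (0.00% of all genes). At an unadjusted p under 0.05 there were 1, 0 and 1 of the 56 genes in these 3 comparisons, or 1.79%, 0% and 1.79%, against 3.27%, 4.88% and 5.88% of all genes. The smallest adjusted p among the 56 was 0.999, 1.00 and 0.706. No gene had all 4 odor arrays on one side of all 4 vehicle arrays in either fraction, where 1.34% of all genes were separated on the higher and 1.04% on the lower side in arrays titled GFP+, and 2.44% and 2.00% in arrays titled GFP-.

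The limit of this comparison is set by the pools. The 95% interval of a gene's odor minus vehicle difference reached a median of 0.49 log2 units to either side within a fraction, and up to 1.39 for Ccl3. For Cxcr2 the difference was 0.25 (95% interval -0.65 to 1.15) in arrays titled GFP+, against 0.09 (-0.81 to 0.99) in those titled GFP-. For Ccr2 it was 0.11 (-1.18 to 1.40) and 0.56 (-0.73 to 1.85). For Ccr2 the intervals include a change of 1 log2 unit in both fractions, and for Cxcr2 in the arrays titled GFP+. The difference of the fraction differences was 0.16 for Cxcr2 (-1.02 to 1.33) and -0.45 for Ccr2 (-2.43 to 1.53).

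Within the arrays titled GFP+, the genes with the smallest p were Ccr6 (0.30 ± 0.17), Ccr3 (0.36 ± 0.23) and Cxcl5 (0.26 ± 0.16) on the higher side, all not above background, and Cxcr6 (-0.51 ± 0.30), Ccl17 (-0.54 ± 0.36) and Cx3cr1 (-0.48 ± 0.32) on the lower side. Within the arrays titled GFP-, they were Ccr1l1 (0.23 ± 0.14), Ccr1 (0.60 ± 0.39) and Ccr10 (0.20 ± 0.18), and on the lower side Cxcl15 (-0.68 ± 0.22), Ccl20 (-0.50 ± 0.25) and Cxcr1 (-0.36 ± 0.23). Of these only Ccl20, a ligand of Ccr6 that attracts dendritic cells and Th17 cells, was above background in the arrays titled GFP-. It read 5.93, 6.42, 6.60 and 5.62 in odor arrays titled GFP+, against 5.44, 6.05, 5.76 and 6.20 in vehicle arrays titled GFP+. In the arrays titled GFP- it read 5.55, 5.61, 6.18 and 5.70 in odor pools, against 6.27, 5.84, 6.69 and 6.23 in vehicle pools. The ranges overlapped in both fractions. Of the 56 genes its fraction difference had the smallest p between treatments, 0.78 ± 0.33 (unadjusted p = 0.0334, adjusted p = 0.999), followed on the higher side by Ccr6 (0.42 ± 0.22) and Cxcl15 (0.53 ± 0.30), and on the lower side by Cxcr6 (-0.60 ± 0.39), Ccr1 (-0.78 ± 0.54) and Ccr1l1 (-0.29 ± 0.21).

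**Figure D4:**
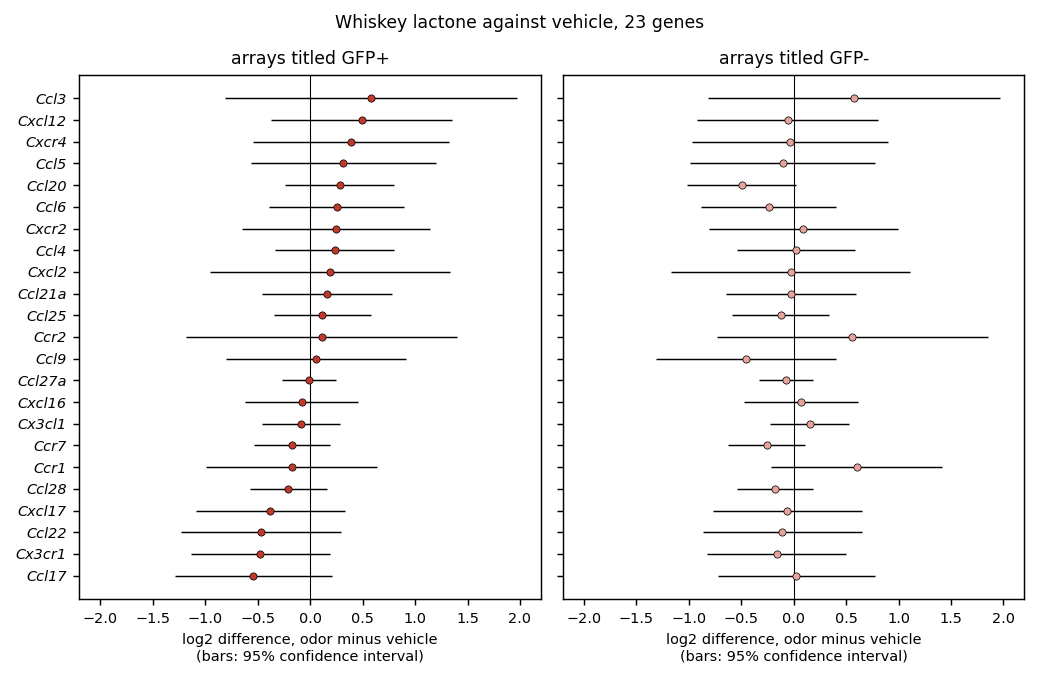
Odor minus vehicle log2 difference (points) with 95% confidence interval (bars), in the arrays titled GFP+ (left) and titled GFP- (right), for the 23 genes above background on all arrays of at least 1 group, sorted by the left panel. Every interval includes 0, and Ccl3 and Ccr2 have the widest, reaching beyond 1 log2 unit on at least 1 side.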

How the data were processed

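Biotin-labelled cRNA, made from 50 to 100 ng of total RNA, was hybridised to 16 Affymetrix arrays. Per the submitters' processing notes, the authors used Affymetrix Expression Console to make the deposited log2 signals. Its version and the normalization are not given in the sources consulted, and the log2 scale was read from the values. Of 28846 features, 19572 carried 1 gene symbol in the platform annotation. The brightest feature of each gene was kept, which left 19505 genes and reduced the 57 features of the chosen symbols to 56 genes. The members and gene lists were chosen with earlier results of these data known. Ccl27b stands on the role lists but was not used here.

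Groups and replicate numbers came from the sample titles. Models were fitted in limma 3.58.1 (R 4.3.3; lmFit, then trended eBayes). They were two-sided, adjusted by Benjamini and Hochberg over 19505 genes, with a threshold of 0.05. Contrasts of fractions took all 16 arrays and each pool of mice as a fixed block, leaving 6 residual degrees of freedom. Contrasts of treatments took 4 group means and a random pool effect (correlation 0.164), leaving 12. Replicates are separate pools of 3 mice. The fractions of a pool correlated in their deviations from group means at 0.116 to 0.341. For an odor and a vehicle pool that share a number, the correlation was 0.198 to 0.279 among arrays titled GFP- (over 0.1 in 4 of 4 pairs). It was 0.0787 to 0.410 among arrays titled GFP+ (3 of 4 pairs). The main contrasts of treatments did not pair pools by number, so their counts and intervals are unpaired. A block by replicate number was run as an alternative. No 2 arrays were duplicates (smallest SD of log2 differences 0.359). The model was tested on simulated data.

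Named genes were Cxcr2 and Ccr2, up to 10 members with the largest called difference of 1 sign in all 4 pools per direction, up to 4 per role list, and otherwise the 3 smallest p per direction. Single members outside this rule, such as Ccl2, Ccl4 and Cx3cl1's partner Cx3cr1, and single genes of the 5 pathway lists, were named after their values were seen. Gene order came from RefSeq (GRCm38.p6), to which 56 of 56 symbols matched. Promoter windows came from the RefSeq table of the same build, and kappaB matches followed a degenerate consensus of that name. Alternatives were median centring, cyclic loess, omission of genes under the 30th percentile, no variance trend, the pool left out of the model or made random, a block by replicate number, the mean of a gene's features and leaving out each pool.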

Additional observations from a re-analysis of the deposited data

Results flagged for a closer look

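In 124 groups of 4 arrays (31 genes), 5 had an array whose gap to its nearest neighbour exceeded Dixon's 95% critical value for 4 samples; chance gives about 5% of groups. Odor pool 1 accounted for 3 of them, all in the arrays titled GFP+. There Ccl17 read 8.32 in pool 1, while the other pools read 7.10 to 7.31. Ccr3 read 4.15 in the same array and 3.54 to 3.62 in the others, and Cxcr5 read 5.09 against 3.31 to 3.57; both lay below the control median. Ccl11, also below it, stood out in vehicle pool 3 in both fractions, with 4.18 in the array titled GFP+ (3.64 to 3.71 in the others) and 5.03 in the array titled GFP- (4.48 to 4.56 in the others).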

How the results depend on the processing

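Scaling moved the counts most. After median centring 32 of the 56 genes passed in odor pools (19 lower) and 39 in vehicle pools (24 lower), while the median difference of all genes moved to -0.53 and -0.51; after cyclic loess it was -0.02 in both, and 1 gene was lower in vehicle pools. Leaving out genes under the 30th percentile left 30 of the 56 genes in the test and 1 lower gene in odor pools, and the pool as a random block gave 4. Without the pool block (no replicate block) 19 genes passed in odor pools and 18 in vehicle pools. Leaving out each odor or vehicle pool gave totals of 15 to 19 in odor pools (13 to 18 higher, 1 to 3 lower) and 18 to 22 in vehicle pools (16 to 19 higher, 2 to 3 lower). The share of all genes that passed between fractions is not given for these alternatives, so the counts show only how the calls shifted. Of the single-gene values, 909 stayed on their side of the threshold with the same direction, 38 lost their call, 19 gained one and 0 reversed. The losses concern Ccl4, Cx3cr1, Cxcr1 and Ccr10 in odor pools and Cxcl12, Cx3cl1, Ccl12, Ccl27a, Cxcl17 and Cxcr5 in vehicle pools. Median centring alone took the call from Ccl4, Cx3cr1 and Cxcr1 in odor pools and from Cxcl12, Cxcl17 and Cxcr5 in vehicle pools. It gave a lower call to Ccl11 and Ccl27a in odor pools and to Ccr10 in vehicle pools. The cause of the losses was not tested. Odor against vehicle gave 0 genes under each alternative run, of 56 tested or, without genes under the 30th percentile, of 30. With the replicate number as a block, 0 of 56 passed in either fraction, among 2 genes in all in the arrays titled GFP+ and 15 in the arrays titled GFP-. Whether pools that share a number belong together was not tested. Signals near the control features limit what the 33 dim genes can show.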
